A study of Mus musculus with 30 samples.

Results

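Transcripts of 9 genes that encode the adhesion and activation receptors of the platelet surface (Itga2b, Itgb3, Gp1ba, Gp1bb, Gp5, Gp9, Gp6, Clec1b and P2ry12) were followed in mouse blood after x-irradiation. They were found by name on the arrays, where 14 of 39429 non-control probes carry one of these symbols, and they make up 9 of the 18726 genes tested. All mice were male C57BL/6J, and their blood, taken by cardiac puncture, went into PAXgene RNA stabiliser. The 6 groups, of 5 arrays each, were p38DKI, p38DN and p38WT mice given an x-ray dose of 7 Gy and sampled 24 h later, and unirradiated mice of the same 3 genotypes. DKI and DN are given as the labels write them. The labels describe 5 independent experiments per genotype and treatment. Ages, the alleles behind DKI and DN and the cells in which they act are not given in the sources used here.

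Platelets have no nucleus, and the RNA they carry was made by their parent megakaryocytes in the marrow. Their surface receptors act in sequence at a vessel wound. The GPIb-IX-V complex tethers flowing platelets to von Willebrand factor, the collagen receptor glycoprotein VI and the podoplanin receptor CLEC-2 signal through a spleen tyrosine kinase pathway, P2Y12 amplifies activation by ADP, and integrin alphaIIb-beta3 binds fibrinogen and links platelets to each other. All are used as markers of the platelet and megakaryocyte lineage. How much of each transcript came from other cells in these samples was not tested. In whole blood, more platelets, more RNA per platelet and less RNA from other cells cannot be told apart from these measurements.

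Whole-blood marker lists showed the arrays to hold the labelled tissue plus varying amounts of other RNA. The 18 B-cell markers were all measured and all 18 fell after irradiation in each genotype (median log2 change -3.92 in p38DKI, -2.38 in p38DN and -4.04 in p38WT blood). Of 17 neutrophil markers, 13 rose in p38DKI, 4 in p38DN and 15 in p38WT blood. Of 18 T-cell markers, 14 fell in p38DKI, 7 in p38DN and 7 in p38WT blood, and of 14 NK-cell markers, 3 rose in p38DKI, 2 in p38DN and 11 in p38WT blood. Of 17 Kupffer and liver sinusoid markers, 12, 7 and 11 rose in p38DKI, p38DN and p38WT blood. Of 28 hepatocyte markers, 1, 0 and 1 rose and 0, 3 and 0 fell in p38DKI, p38DN and p38WT blood. Their median log2 change was 2.69, -3.17 and 1.25, so that in p38DN the unirradiated arrays held more liver RNA. Of all genes, 11.8%, 17.3% and 14.9% rose in p38DKI, p38DN and p38WT blood, and 19.6%, 10.6% and 12.3% fell. The part of these marker shifts in the receptor results was not tested. The mean of 28 hepatocyte markers spanned from -2.54 to 8.79 on the log2 scale around its median over arrays, with the highest value on p38DKI irradiated array 2. Its group median was 6.71 in unirradiated and 1.69 in irradiated p38DN blood. Of the arrays, p38WT irradiated array 3 had the most spots left out as non-uniform or as population outliers (579) and the smallest share of probes well above background (39.7%, against up to 63.2% on the others). The p38WT and p38DKI arrays lay on slides 1 to 5 and those of p38DN on slides 6 to 10, scanned on other days. Slide set and genotype therefore cannot be told apart for p38DN. Slide 1 held unirradiated p38WT arrays alone and slide 5 irradiated p38DKI arrays alone. Only slide 3 held both p38WT and p38DKI, as irradiated p38WT and unirradiated p38DKI arrays. Arrays of p38WT and p38DKI at the same dose thus shared no slide.

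The 4 genes of the von Willebrand factor receptor lie on chromosomes 11, 16 and 6, and their promoters are shown because their transcripts are compared as one complex. Each sequence is a 300-base stretch across the annotated start, from RefSeq (GRCm38.p6), written in the direction of the gene. Capitals mark 2 short letter patterns on either strand, GATAA (or TTATC), the core read by GATA factors, and GGAAG (or CTTCC), a core read by ETS factors, both families that act in megakaryocytes.
Gp1ba promoter, chr11:70638872-70639171, plus strand: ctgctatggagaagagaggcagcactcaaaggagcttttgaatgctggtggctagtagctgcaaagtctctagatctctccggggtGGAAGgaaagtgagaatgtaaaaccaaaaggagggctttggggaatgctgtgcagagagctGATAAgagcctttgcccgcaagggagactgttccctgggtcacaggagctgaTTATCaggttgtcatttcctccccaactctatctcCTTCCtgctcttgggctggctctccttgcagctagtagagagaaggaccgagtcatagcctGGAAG
Gp1bb promoter, chr16:18622354-18622653, minus strand: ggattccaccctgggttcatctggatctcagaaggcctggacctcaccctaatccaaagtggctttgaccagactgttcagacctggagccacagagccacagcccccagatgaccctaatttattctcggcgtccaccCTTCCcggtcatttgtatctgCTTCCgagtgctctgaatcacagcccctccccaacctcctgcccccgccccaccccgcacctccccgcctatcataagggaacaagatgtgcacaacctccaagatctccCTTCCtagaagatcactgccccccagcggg
Gp5 promoter, chr16:30310732-30311031, minus strand: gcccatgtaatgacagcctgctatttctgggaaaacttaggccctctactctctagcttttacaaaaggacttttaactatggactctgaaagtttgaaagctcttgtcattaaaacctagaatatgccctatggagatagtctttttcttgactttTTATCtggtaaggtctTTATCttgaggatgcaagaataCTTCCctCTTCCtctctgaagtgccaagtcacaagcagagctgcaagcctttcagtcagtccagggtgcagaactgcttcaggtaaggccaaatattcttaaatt
Gp9 promoter, chr6:87777820-87778119, plus strand: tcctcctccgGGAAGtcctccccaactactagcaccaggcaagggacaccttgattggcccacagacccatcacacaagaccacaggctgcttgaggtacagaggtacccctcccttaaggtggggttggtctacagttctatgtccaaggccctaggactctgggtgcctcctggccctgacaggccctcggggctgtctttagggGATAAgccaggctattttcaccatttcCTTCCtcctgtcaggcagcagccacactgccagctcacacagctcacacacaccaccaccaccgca

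The patterns did not overlap each other in these promoters. Gp1ba holds GATAA at 2 places and GGAAG at 3, Gp5 holds each at 2 places, and Gp9 holds GATAA at 1 and GGAAG at 2. Gp1bb holds GGAAG at 3 places and no GATAA in this window. Over the 8 receptor genes with a promoter in the table, 5 hold GATAA (Gp1ba, Gp5, Gp9, Gp6 and Clec1b), where 25.4% of all 32851 promoters do. GGAAG occurs in 7 of the 8, all but Clec1b, and in 71.4% of all promoters. Clec1b holds GATAA at 4 places, Gp6 at 1, and Itga2b and P2ry12 at none. These matches describe letters, not binding.

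The measured stretches of 3 receptors are shown because their probes differ in place or composition. They are 60-base probes as deposited, placed by the file on mm9 coordinates.
Itga2b probe A_52_P459564, chr11:102319453-102319661, minus strand: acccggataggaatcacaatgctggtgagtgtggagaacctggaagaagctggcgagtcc
Gp1bb probe A_51_P151576, chr16:18621107-18621166, minus strand: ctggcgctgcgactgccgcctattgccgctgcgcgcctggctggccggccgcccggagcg
Clec1b probe A_55_P1962010, chr6:129350113-129350172, plus strand: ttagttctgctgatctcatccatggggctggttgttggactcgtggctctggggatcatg
Clec1b probe A_55_P1992617, chr6:129353604-129353663, plus strand: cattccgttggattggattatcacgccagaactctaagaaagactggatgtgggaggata

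The Itga2b probe covers 209 bases of genome with 60 bases of sequence, and so crosses at least 1 intron. The Gp1bb probe is 80% G and C, the highest share among the 14 probes, of which the lowest is the 35% of Gp1ba. The Clec1b probes sample separate parts of a transcript that is also measured further downstream by the probe that stands for the gene. All 14 probes passed the filter on low signal. The 9 that stand for the genes were well above background on all 30 arrays, and none was saturated.

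Levels are given as log2 of the processed intensity over the 75th percentile of each array. They can be compared between arrays for a gene, not between genes. At an adjusted p below 0.05 (limma, Benjamini-Hochberg over all 18726 genes), 24 h after 7 Gy, 4 of the 9 genes rose in p38DKI blood, all 9 in p38DN blood and 8 in p38WT blood, and none fell. Of all genes, 11.8% rose in p38DKI, 17.3% in p38DN and 14.9% in p38WT blood at the same threshold, and 19.6% fell in p38DKI, 10.6% in p38DN and 12.3% in p38WT blood. The median log2 change of the 9 genes was 0.94 in p38DKI, 1.95 in p38DN and 1.66 in p38WT blood, beside -0.26, 0.00 and -0.04 for all genes. The 9 estimates were positive in each genotype, and ran between 0.66 and 1.32 in p38DKI, 1.29 and 2.69 in p38DN, and 0.79 and 2.09 in p38WT blood.

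**Figure D1:**
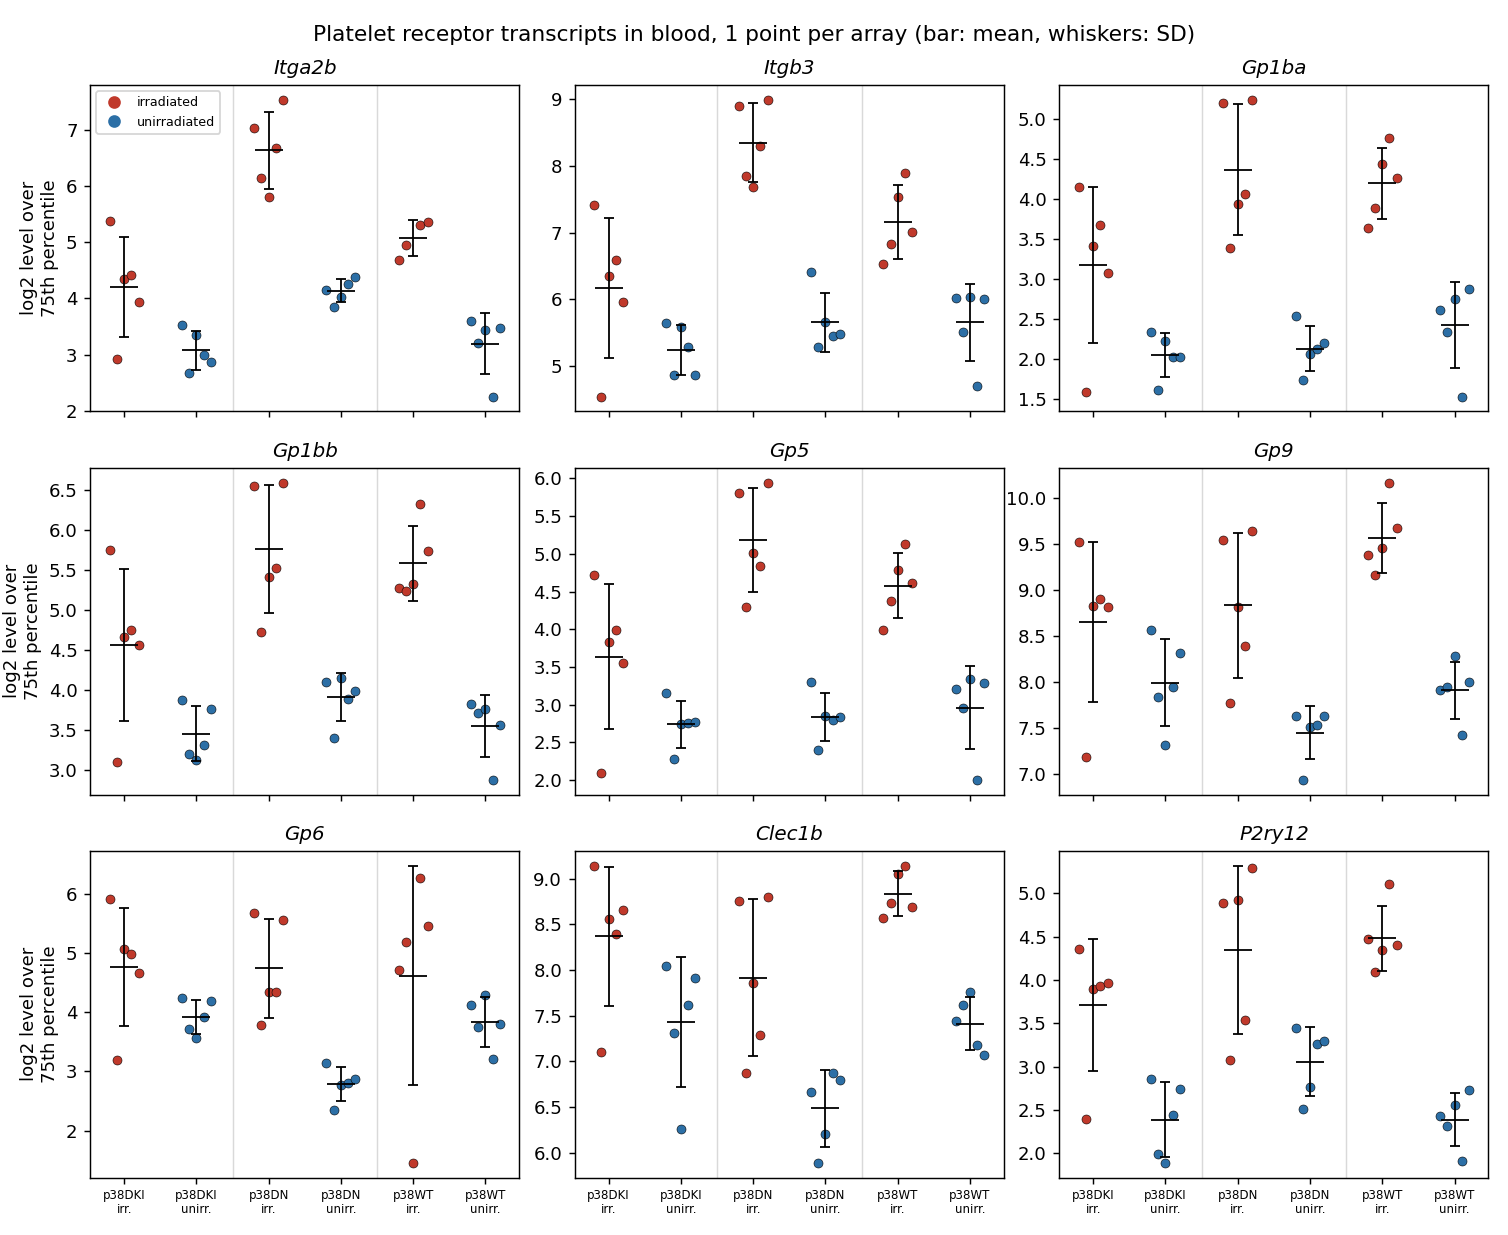
Log2 level of each of the 9 receptor transcripts over the array's 75th percentile (y axis), by group (x axis), with 1 point per array, the mean as a bar and the SD as whiskers (n = 5, or 4 for Itga2b in irradiated p38WT blood). In p38DN and p38WT blood the irradiated arrays lie apart from the unirradiated ones for 8 genes each, while irradiated p38DKI array 2 lies among or below the unirradiated p38DKI ones for each gene.

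The arrays of irradiated and unirradiated mice did not overlap for 0 of the 9 genes in p38DKI blood (7.04% of all genes were higher with no overlap), for 8 in p38DN blood (12.2%) and for 8 in p38WT blood (13%). The overlap in p38DKI came from array 2 of the irradiated group, the one highest in hepatocyte transcripts. The same array had the highest 75th percentile, by which levels are scaled, at 244.2 intensity units. The next highest was 133.1, on p38WT unirradiated array 4. The parts of liver RNA and of scaling in the low receptor levels of array 2 were not tested. It was the lowest of its group for 9 of 9 genes. Without it the groups did not overlap for any of the 9 genes, where 14.9% of all genes were higher with no overlap, and 8 of the 9 rose instead of 4. The median log2 change was then 1.33. In the other direction, without p38DKI irradiated array 1, the highest of its group for 9 of 9 genes, 1 of the 9 rose (P2ry12), and without p38DKI unirradiated array 2, 2 rose (Itga2b and P2ry12). Gp1ba also missed the threshold without p38DKI irradiated array 3 (adjusted p = 0.0503) or array 4 (adjusted p = 0.0571), and Clec1b passed it without p38DKI unirradiated array 1 (adjusted p = 0.0373) or array 5 (adjusted p = 0.0452).

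Itga2b and Itgb3 encode the 2 chains of the fibrinogen receptor. Itga2b levels were 5.38, 2.92, 4.34, 4.41 and 3.94 in irradiated p38DKI blood, against 3.52, 2.68, 3.35, 2.99 and 2.86 in unirradiated p38DKI blood. They were 7.03, 6.14, 5.81, 6.67 and 7.53 in irradiated p38DN blood, against 4.15, 3.85, 4.03, 4.26 and 4.38 in unirradiated p38DN blood. In irradiated p38WT blood 4 arrays gave 4.68, 4.95, 5.31 and 5.36 (the spot on array 3 was marked as an outlier and left out), against 3.59, 3.20, 3.43, 2.25 and 3.47 in unirradiated p38WT blood. The irradiated arrays stood clear of the unirradiated ones in p38DN and p38WT, and 4 of 5 did so in p38DKI. The log2 change was 1.12 ± 0.34 (SE) in p38DKI (2.17-fold, adjusted p = 0.0156), 2.50 ± 0.34 in p38DN (5.66-fold, adjusted p = 8.64e-06) and 1.89 ± 0.37 in p38WT blood (3.69-fold, adjusted p = 0.000416).

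Itgb3, the beta chain, gave the largest change of the 9 genes in p38DN blood. Its levels there were 8.90, 7.86, 7.69, 8.30 and 8.99 after irradiation, against 6.41, 5.27, 5.65, 5.45 and 5.47 without, a log2 change of 2.69 ± 0.39 (6.48-fold, adjusted p = 1.34e-05). In p38WT blood they were 6.53, 6.82, 7.53, 7.89 and 7.02 after irradiation, against 6.02, 5.50, 6.03, 4.70 and 6.00 without (log2 change 1.51 ± 0.39, adjusted p = 0.00479). Both sets were free of overlap. In irradiated p38DKI blood Itgb3 levels were 7.41, 4.53, 6.35, 6.59 and 5.95, against 5.64, 4.86, 5.58, 5.27 and 4.86 in unirradiated p38DKI blood, and the log2 change of 0.93 ± 0.39 missed the threshold (adjusted p = 0.0701). A second, dimmer Itgb3 probe gave log2 changes of 0.63, 2.74 and 1.17 in p38DKI, p38DN and p38WT blood, past the threshold in p38DN alone.

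The von Willebrand factor receptor complex is built from the ligand-binding chain GPIb-alpha (Gp1ba), its disulfide-linked partner GPIb-beta (Gp1bb), GPIX (Gp9) and GPV (Gp5), and its promoters are printed above. All 4 transcripts rose in p38DN and in p38WT blood, and 2 of the 4 rose in p38DKI blood. Gp1bb levels were 5.75, 3.10, 4.67, 4.75 and 4.56 in irradiated p38DKI blood, against 3.88, 3.20, 3.13, 3.31 and 3.76 in unirradiated p38DKI blood (log2 change 1.11 ± 0.37, adjusted p = 0.0221). They were 6.55, 4.72, 5.42, 5.53 and 6.59 in irradiated p38DN blood, against 4.10, 3.40, 4.15, 3.89 and 3.99 in unirradiated p38DN blood (1.86 ± 0.37, adjusted p = 0.000394). In irradiated p38WT blood they were 5.28, 5.24, 5.33, 6.33 and 5.74, against 3.82, 3.72, 3.76, 2.88 and 3.56 in unirradiated p38WT blood (2.04 ± 0.37, or 4.10-fold, adjusted p = 0.000171). The lowest irradiated p38WT array, at 5.24, and the highest unirradiated one, at 3.82, lay further apart than the arrays of either group.

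Gp1ba and Gp5 moved almost as one gene across arrays. The log2 change of Gp1ba was 1.13 ± 0.38 in p38DKI (adjusted p = 0.0236), 2.23 ± 0.38 in p38DN (adjusted p = 7.49e-05) and 1.77 ± 0.38 in p38WT blood (adjusted p = 0.000925). For Gp5 it was 0.90 ± 0.36 in p38DKI (adjusted p = 0.0597), 2.34 ± 0.36 in p38DN (adjusted p = 3.05e-05) and 1.62 ± 0.36 in p38WT blood (adjusted p = 0.00151). After group means were removed, the 2 genes correlated at r = 0.985 over the 30 arrays, the highest of the 36 pairs among the 9 genes, although Gp1ba lies on chromosome 11 and Gp5 on chromosome 16. Gp5 levels spanned from 2.10 to 4.72 in irradiated p38DKI blood, against 2.28 to 3.16 in unirradiated p38DKI blood.

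Gp9 gave the smallest p38DKI estimate of the 9 genes. Its levels were 9.52, 7.18, 8.82, 8.90 and 8.81 in irradiated p38DKI blood, against 8.56, 7.83, 7.31, 7.94 and 8.31 in unirradiated p38DKI blood (log2 change 0.66, 95% interval -0.06 to 1.37, adjusted p = 0.146). In irradiated p38DN blood the levels spanned from 7.77 to 9.64, against 6.93 to 7.63 in unirradiated p38DN blood (1.38 ± 0.35, adjusted p = 0.00384). They spanned from 9.16 to 10.16 in irradiated p38WT blood, against 7.42 to 8.28 in unirradiated p38WT blood (1.66 ± 0.35, adjusted p = 0.000861). Other probes of the complex gave a mixed picture for Gp1bb. A second probe followed the first (log2 change 0.97 in p38DKI, 2.26 in p38DN and 2.17 in p38WT blood), whereas another, dim probe (A_55_P2039876), well above background on 18 of 30 arrays, gave -0.51, 1.49 and 0.65 and passed the threshold in p38DN alone.

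Gp6 encodes the collagen receptor that signals through the Fc receptor gamma chain, and it was the one gene not called in p38WT blood. Its levels there were 4.72, 5.19, 1.46, 6.26 and 5.46 after irradiation, against 4.11, 3.75, 4.30, 3.21 and 3.79 without (log2 change 0.79 ± 0.57, adjusted p = 0.341). The value of 1.46 is that of array 3, described above as having the most spots left out. Without that array the log2 change was 1.58 with an adjusted p of 0.00592, and 9 of 9 genes rose in p38WT blood. In irradiated p38DN blood Gp6 levels were 5.68, 3.78, 4.35, 4.34 and 5.55, against 3.14, 2.35, 2.77, 2.80 and 2.87 in unirradiated p38DN blood (1.95 ± 0.57, or 3.88-fold, adjusted p = 0.0116). Those groups did not overlap. Without the 4 arrays highest in hepatocyte transcripts the p38DN change of Gp6 was 1.79, with an adjusted p of 0.0780. In irradiated p38DKI blood they were 5.91, 3.20, 5.07, 4.98 and 4.66, against 4.24, 3.72, 3.56, 3.91 and 4.19 in unirradiated p38DKI blood (0.84 ± 0.57, adjusted p = 0.254).

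Clec1b encodes CLEC-2, which binds podoplanin and works in the separation of blood and lymph vessels as well as in clotting. Its levels were 9.14, 7.10, 8.55, 8.39 and 8.66 in irradiated p38DKI blood, against 8.04, 7.31, 6.26, 7.62 and 7.92 in unirradiated p38DKI blood (log2 change 0.94 ± 0.37, adjusted p = 0.0519). They were 8.76, 6.88, 7.86, 7.29 and 8.80 in irradiated p38DN blood, against 6.67, 5.89, 6.21, 6.87 and 6.80 in unirradiated p38DN blood (1.43 ± 0.37, adjusted p = 0.00439). The irradiated p38WT arrays lay close together at 8.58, 8.74, 9.06, 9.13 and 8.69, against 7.44, 7.62, 7.76, 7.18 and 7.08 in unirradiated p38WT blood (1.42 ± 0.37, adjusted p = 0.00469). The p38DN groups almost touched, with the lowest irradiated array at 6.88 and the highest unirradiated one at 6.87. All 3 probes of the gene rose in p38DN and p38WT blood. The most upstream probe (A_55_P1962010, printed above) gave 0.94, 1.38 and 1.98 in p38DKI, p38DN and p38WT blood, and the middle one (A_55_P1992617) gave 1.04, 1.53 and 1.72. In p38DKI blood the middle probe passed the threshold (adjusted p = 0.0382, limma over all kept probes). The most upstream one did not (adjusted p = 0.0534), so that the p38DKI call of Clec1b depended on the probe.

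P2ry12 encodes the ADP receptor that is the target of clopidogrel, and it gave the largest change of the 9 genes in p38WT and p38DKI blood but the smallest in p38DN blood. Levels were 4.36, 2.40, 3.90, 3.93 and 3.97 in irradiated p38DKI blood, against 2.86, 2.0, 1.89, 2.45 and 2.75 in unirradiated p38DKI blood (log2 change 1.32 ± 0.36, or 2.50-fold, adjusted p = 0.00728). In irradiated p38DN blood they were 4.89, 3.08, 4.92, 3.54 and 5.30, against 3.44, 2.52, 2.76, 3.26 and 3.30 in unirradiated p38DN blood (1.29 ± 0.36, adjusted p = 0.00895). In irradiated p38WT blood they were 4.47, 4.09, 4.35, 5.10 and 4.40, against 2.44, 2.31, 2.56, 1.92 and 2.73 in unirradiated p38WT blood (2.09 ± 0.36, or 4.26-fold, adjusted p = 0.000123). The p38DN groups overlapped through irradiated array 2, and those of p38WT were more than 1 log2 unit apart.

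**Figure D2:**
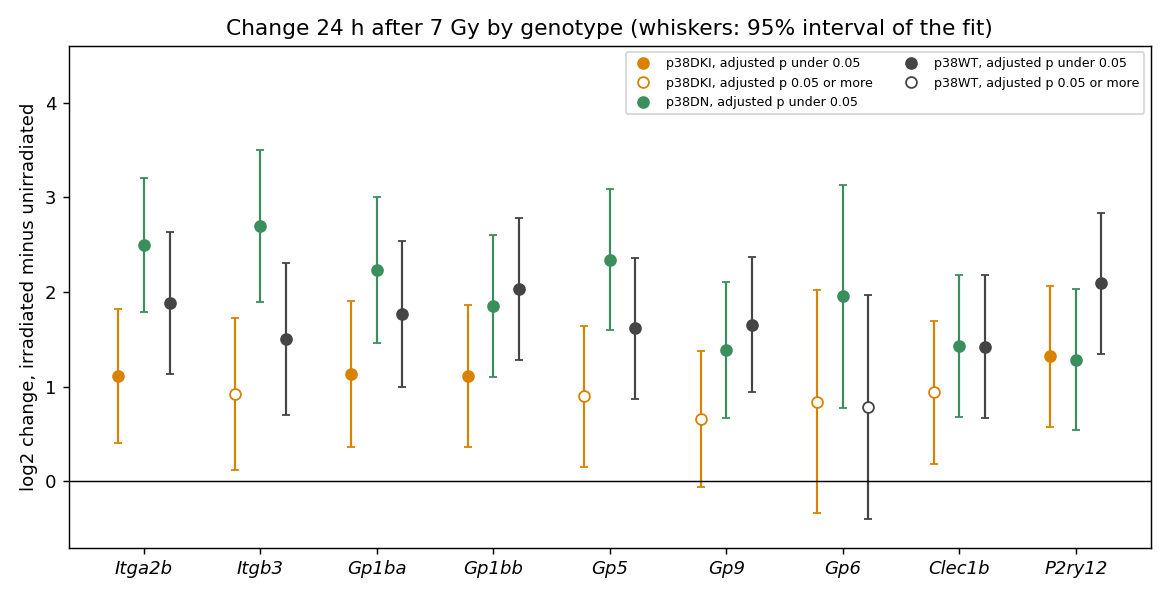
Log2 change after irradiation (y axis, irradiated minus unirradiated) for each receptor gene (x axis) in p38DKI, p38DN and p38WT blood, with the 95% interval of the fit as whiskers, filled where the adjusted p is below 0.05. All estimates are above 0, and the p38DN estimates of Itgb3 and Itga2b, at 2.69 and 2.50, are the highest in the plot.

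Several slides held both doses of a genotype, so that the change could also be read within a slide. On each of slides 6 to 10, with 1 irradiated and 1 unirradiated p38DN array, the difference was positive for 9 of 9 genes, with medians of 1.43, 1.78, 2.49, 2.68 and 1.64. Slide 4, with 1 irradiated and 3 unirradiated p38DKI arrays, gave 9 of 9 positive and a median of 2.02. That irradiated array is array 1, the highest of its group for 9 of 9 genes. Slide 2, with 3 irradiated and 1 unirradiated p38WT arrays, gave 8 of 9 positive and a median of 1.34, with Gp6 at -0.0044. Its irradiated arrays include array 3. Itgb3 differed by 2.03 to 3.52 within the p38DN slides and P2ry12 by 0.27 to 2.15.

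**Figure D3:**
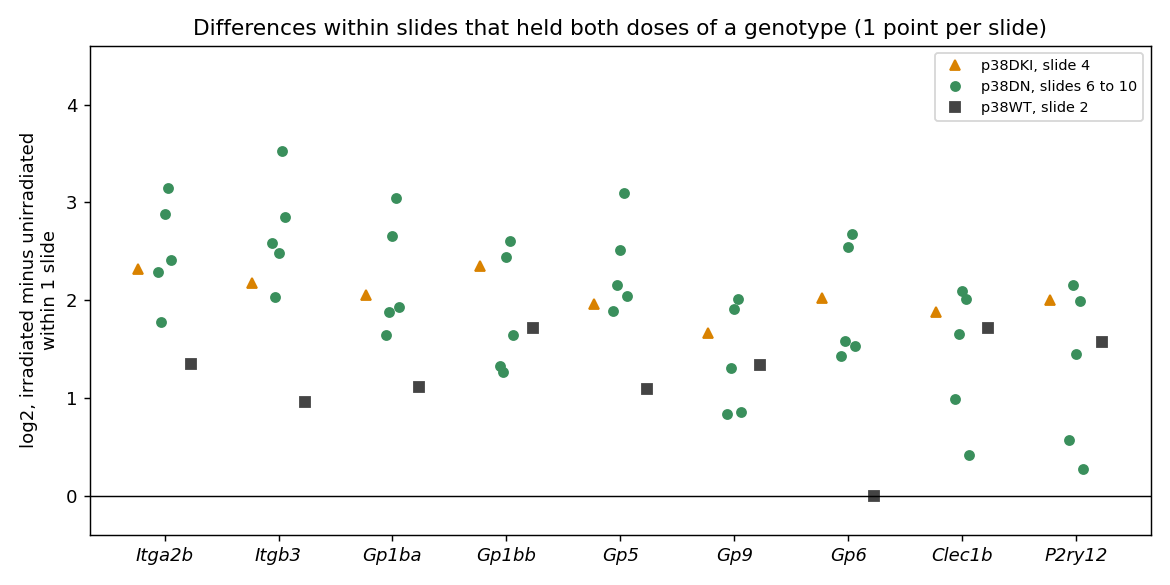
Differences between irradiated and unirradiated arrays of 1 genotype on 1 slide (y axis, log2), by gene (x axis), with 1 point per slide. The p38DN points, from 5 slides, are positive for all 9 genes, as is the p38DKI slide, and the p38WT slide is at -0.0044 for Gp6. The p38DKI slide holds 1 irradiated array, array 1, the highest of its group for 9 of 9 genes.

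The calls in p38WT blood depended on the background correction and on slide. With normexp correction of the mean signals, which here also added an offset of 50 intensity units, none of the 9 genes passed the threshold in p38WT blood (3 at an unadjusted p below 0.05, limma). The median log2 change was 0.85. The part of the offset in this was not tested. With slide as a fixed block, which rests the p38WT estimate on slide 2 alone, none passed either (5 at an unadjusted p below 0.05), with a median of 1.34.

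Set against p38WT, the 9 genes in p38DKI blood did not differ past the threshold at either dose. No slide held arrays of both genotypes at the same dose. Without irradiation 0 of 9 passed (0.101% of all genes did, and 0 of the 9 had an unadjusted p below 0.05, limma), and the estimates lay between -0.41 and 0.09. After irradiation 0 of 9 passed (4.35% of all genes), although 7 had an unadjusted p below 0.05. There the estimates for p38DKI minus p38WT were -1.02 for Gp1bb (95% interval -1.77 to -0.27), -1.01 for Gp1ba (-1.79 to -0.24) and -0.99 for Itgb3 (-1.79 to -0.19). Gp6 alone was positive, at 0.15 (-1.03 to 1.32). These differences turned on single p38DKI arrays. Without p38DKI irradiated array 1, 5 of 9 passed (Itga2b, Itgb3, Gp1ba, Gp1bb and Gp5), and without p38DKI irradiated array 2 the estimates shrank, for Gp1bb to -0.65.

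**Figure D4:**
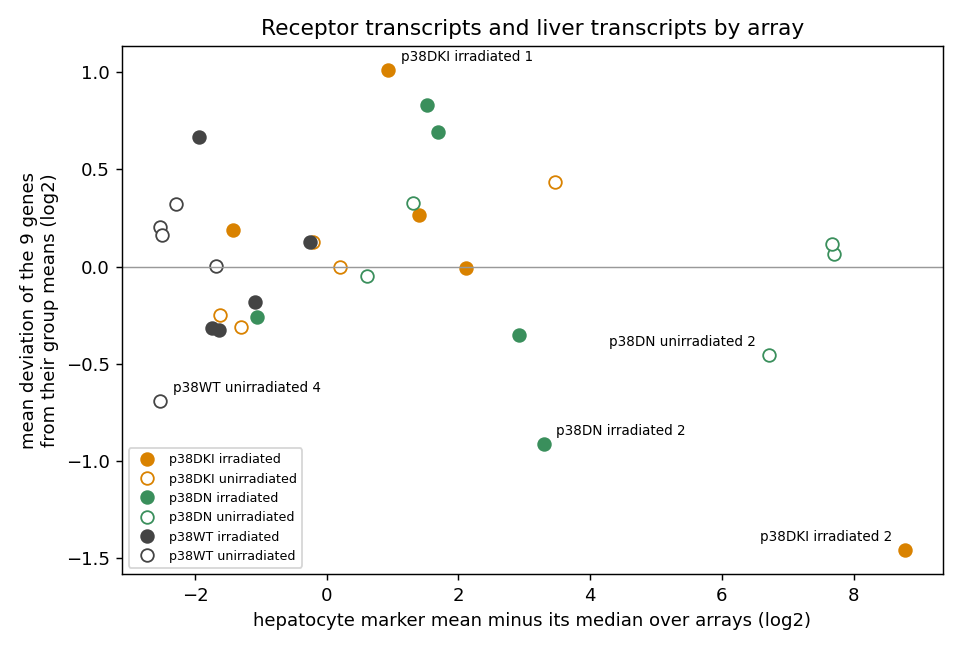
Mean deviation of the 9 receptor genes from their group means (y axis, log2) against the mean of 28 hepatocyte markers minus its median over arrays (x axis, log2), with 1 point per array and 5 arrays named. The p38DKI irradiated array 2 is highest in hepatocyte transcripts, at 8.79, and lowest in the receptor genes, at -1.46. It also has the highest 75th percentile, by which levels are scaled. The p38DN unirradiated arrays 2, 4 and 5, at 6.71, 7.70 and 7.67, deviate by -0.45, 0.06 and 0.11. They make up most of their group of 5 arrays, and so largely set the mean from which they are measured.

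Against p38WT, p38DN blood showed 2 of 9 genes past the threshold without irradiation, where 54.3% of all genes passed, and 3 of 9 after irradiation, where 43% of all genes passed. Slide set and genotype cannot be told apart in this comparison, and 26 of 28 hepatocyte markers were higher and 12 of 14 NK-cell markers lower in unirradiated p38DN blood. Itga2b averaged 4.13 ± 0.20 in unirradiated p38DN blood and 3.19 ± 0.54 in unirradiated p38WT blood (SD, n = 5 each), a difference of 0.94 (adjusted p = 0.0232). Clec1b averaged 6.49 ± 0.42 in unirradiated p38DN blood and 7.42 ± 0.29 in unirradiated p38WT blood, a difference of -0.93 (adjusted p = 0.0347). After irradiation Itga2b differed by 1.56 (adjusted p = 0.00115), Itgb3 by 1.19 (adjusted p = 0.0154) and Clec1b by -0.92 (adjusted p = 0.0443). The irradiated differences of Itga2b and Itgb3 passed the threshold whichever single array was left out. Without irradiation, Clec1b missed the threshold when array 2 or 3 of p38DN or array 1, 2 or 3 of p38WT was left out (adjusted p between 0.0556 and 0.0966), and Itga2b missed it without p38DN array 5 (adjusted p = 0.0519) or p38WT array 4 (adjusted p = 0.0898). After irradiation, Clec1b missed it when array 2, 3 or 4 of p38DN or array 2, 3, 4 or 5 of p38WT was left out (adjusted p between 0.0547 and 0.156). Leaving out the 4 arrays highest in hepatocyte transcripts, 3 of them from the 5 unirradiated p38DN arrays, gave differences of about the same size without irradiation, 0.90 for Itga2b (adjusted p = 0.0858) and -0.98 for Clec1b (adjusted p = 0.0779), with 0 of 9 genes past the threshold and 2 at an unadjusted p below 0.05 (limma). With normexp correction the unirradiated Itga2b difference was -0.39.

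The change after irradiation was compared between genotypes directly, as a difference of differences. None of the 9 genes passed the threshold for p38DKI minus p38WT (0.00534% of all genes passed), for p38DN minus p38WT (1.69%) or for p38DN minus p38DKI (0.919%). At an unadjusted p below 0.05 (limma) there were 0, 1 and 4 genes. The p38DKI change minus the p38WT change had a median of -0.72 over the 9 genes, with Gp9 at -1.0 (95% interval -2.02 to 0.01) and Itga2b at -0.77 (-1.80 to 0.26). Those intervals leave room both for no difference and for changes well below those of p38WT. The median turned to 0.34 without scaling, 0.35 with normexp correction and 0.87 with slide as a fixed block. That block rests the p38DKI change on slide 4, whose only irradiated array is array 1, and the p38WT change on slide 2.

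Itgb3 had the widest spread between genotypes. Its change was 1.19 larger in p38DN than in p38WT blood (95% interval 0.06 to 2.32, adjusted p = 0.24) and 1.77 larger in p38DN than in p38DKI blood (0.64 to 2.90, adjusted p = 0.0941). The second difference passed the threshold when p38DKI irradiated array 1 was left out (2.08, adjusted p = 0.0412) or p38DN unirradiated array 1 (1.96, adjusted p = 0.0481). For P2ry12 the p38DN change minus the p38WT change was -0.80 (-1.86 to 0.25, adjusted p = 0.404). The 2 genes thus took opposite places in the order of p38DN and p38WT changes, without a difference that passed.

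Arrays of 1 group differed from each other in the 9 genes together. After group means were removed, the 36 pairs of receptor genes had correlations between 0.47 and 0.985 over 30 arrays, with a median of 0.83, and the 4 lowest were pairs with Gp6. Without p38WT irradiated array 3 the lowest was 0.57. These are descriptions of arrays that also share scaling and blood composition. In unirradiated p38DKI blood array 1 was the highest for 9 of 9 genes, in unirradiated p38DN blood array 2 was the lowest for 9 of 9, and in unirradiated p38WT blood array 4 was the lowest for 8 of 9. In irradiated p38WT blood array 4 was the highest for 8 of 9. The residual mean of the 9 genes and that of the hepatocyte markers correlated at r = -0.375. The plot of receptor and liver transcripts, where p38DKI irradiated array 2 lies apart, shows the hepatocyte markers without group means removed.

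The 8 other genes whose residuals followed the mean of the receptor genes most closely were Treml1, Rhoj, Pdlim1, Tubb1, Zyx, Mmrn1, Maged2 and Rasgrp2, with r between 0.948 and 0.967 over 30 arrays. The median r over 14926 genes ranked was 0.18. Treml1 encodes a receptor stored in platelet alpha granules, Tubb1 the platelet beta-tubulin of the marginal band, Mmrn1 the factor V carrier multimerin 1, and Rasgrp2 an exchange factor that activates Rap1 ahead of integrin activation. Pdlim1 and Zyx encode proteins of the actin cytoskeleton. Left without the 2 arrays farthest from the median, their r lay between 0.909 and 0.954. The log2 change of Treml1 was 0.57 in p38DKI blood, where it missed the threshold (adjusted p = 0.246), 1.85 in p38DN and 1.53 in p38WT blood.

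Other platelet genes were read from 4 lists. For comparison, 11.8%, 17.3% and 14.9% of all genes rose in p38DKI, p38DN and p38WT blood, and 19.6%, 10.6% and 12.3% fell. Of 25 other platelet receptors measured, 10 rose and 2 fell in p38DKI, 22 rose and 2 fell in p38DN, and 18 rose and 2 fell in p38WT blood (median log2 change 0.81, 1.85 and 1.37). The 2 that fell were the same in each genotype, Cd36, a scavenger receptor for fatty acids and thrombospondin, and Tbxa2r, the thromboxane receptor. Cd36 changed by -2.0 ± 0.37 in p38DKI (adjusted p = 0.000253), -1.45 in p38DN and -1.19 in p38WT blood, and Tbxa2r by -1.98 ± 0.25 (adjusted p = 2.07e-06), -0.91 and -1.22. Cd36 is also made by monocytes. The ADP receptor P2ry1, partner of P2ry12 in platelet activation, rose by 1.99 ± 0.32 in p38DKI and 1.89 ± 0.32 in p38WT blood. P2rx1, an ATP-gated channel, rose by 1.94 and Itgb1 by 1.80 in p38WT blood, and in p38DN blood Selp, the adhesion receptor P-selectin, rose by 2.65 ± 0.38, Itgb1 by 2.56 and Itga6, a laminin receptor chain, by 2.27.

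**Figure D5:**
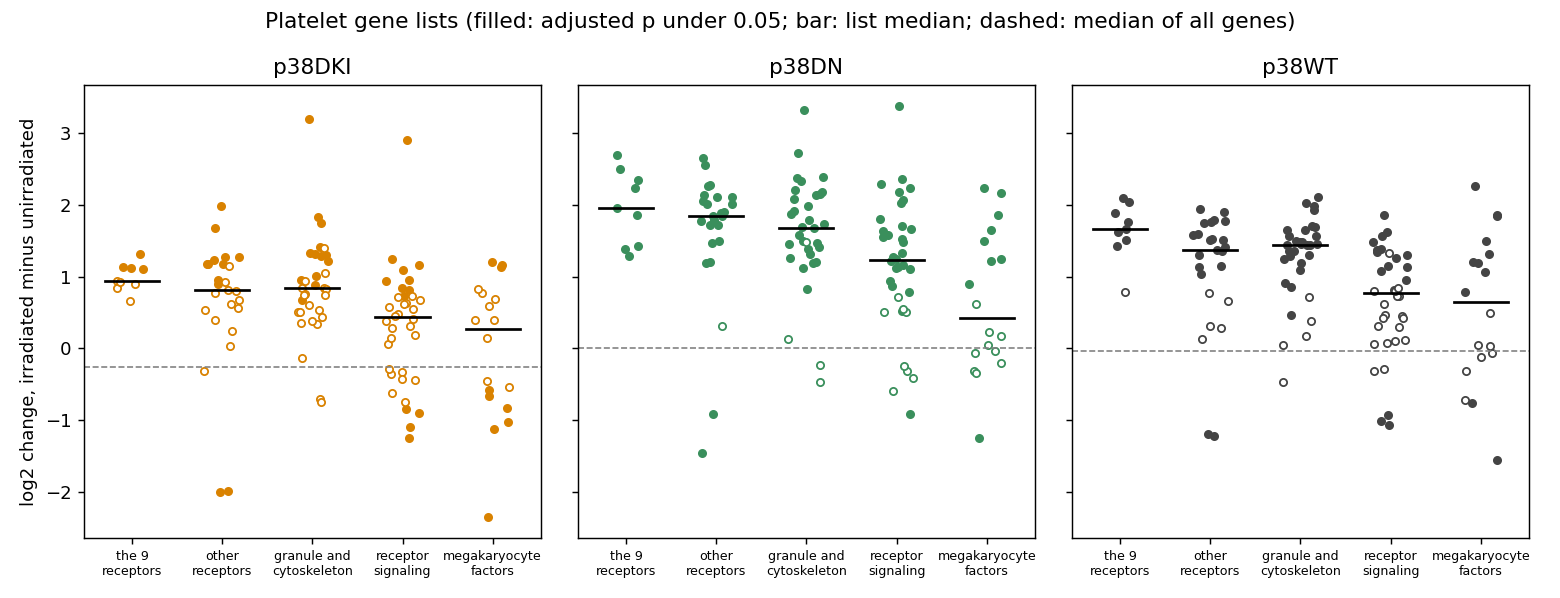
Log2 change after irradiation (y axis) of the 9 receptor genes and of 4 other platelet gene lists (x axis) in p38DKI, p38DN and p38WT blood, with 1 point per gene, filled where the adjusted p is below 0.05, a bar at the list median and a dashed line at the median of all genes. The list medians of other receptors (0.81, 1.85 and 1.37) and of granule and cytoskeleton genes (0.85, 1.67 and 1.44) lie near those of the 9 receptors.

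Of 33 genes of platelet granules and cytoskeleton, all measured, 13 rose in p38DKI, 29 in p38DN and 28 in p38WT blood, and none fell. Thbs1, the alpha-granule protein thrombospondin 1, rose by 1.75 in p38DKI, 3.32 in p38DN and 2.11 in p38WT blood. Tubb1 rose by 2.39 in p38DN and 1.99 in p38WT blood, Ptgs1, the cyclooxygenase that aspirin blocks, by 2.73 in p38DN, and Rgs18, a brake on G-protein signals, by 2.02 in p38WT blood. Sparc rose by 3.20 and F5, coagulation factor V, by 1.83 in p38DKI blood. Sparc is also made in other tissues, and its p38DKI groups overlapped.

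Among 36 genes of receptor signaling, 9 rose and 4 fell in p38DKI, 27 rose and 1 fell in p38DN, and 14 rose and 3 fell in p38WT blood. Rasgrp2 rose by 1.86, Pik3cb, a kinase downstream of P2Y12, by 1.62 and Skap2 by 1.56 in p38WT blood. Dab2, an adaptor that binds integrin beta3, rose by 2.90 in p38DKI and 3.38 in p38DN blood. Tln1, which switches integrins to their active form, rose by 2.36 and Prkca by 2.30 in p38DN blood, and Gnaq by 1.24 in p38DKI blood. Prkcb, which B cells also express, fell by 1.25 in p38DKI blood, where all 18 B-cell markers fell, and their part in its change was not tested.

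Of 18 megakaryocyte transcription and lineage factors measured, 3 rose and 6 fell in p38DKI blood, where 11.8% of all genes rose and 19.6% fell. In p38DN blood 8 rose and 1 fell, where 17.3% of all genes rose and 10.6% fell, and in p38WT blood 9 rose and 2 fell, where 14.9% rose and 12.3% fell. Gfi1b rose by 2.24 in p38DN and 2.26 in p38WT blood, and Tal1 by 1.16 in p38DKI, 2.17 in p38DN and 1.84 in p38WT blood. Runx1 rose by 1.86 in p38WT blood, Gata1, whose protein reads the GATA core marked in the promoters, by 1.86 in p38DN blood, and Meis1 by 1.21 in p38DKI blood. Lmo2, a bridging factor of blood progenitors, fell by 2.35 ± 0.36 in p38DKI blood (adjusted p = 2.18e-05). Tal1, Gata1 and Gfi1b are also expressed in red cell precursors, whose 20 markers fell in 14 cases in p38DKI, 13 in p38DN and 8 in p38WT blood.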

How the data were processed

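Total RNA from the blood of 30 mice was measured on one-colour Agilent arrays read with Feature Extraction 12.0.2, per the submitters' processing notes. The scanner files deposited by the authors hold a processed signal in intensity units, already background-corrected, per the file headers. The authors' deposited value table was used as an alternative. The log2 values the authors deposited there equal log2 of the processed signal less a single number for each array, as found by comparing both.

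For the main results the log2 of the processed intensity was set against each array's 75th percentile (43.7 to 244.2 intensity units), spots marked as outliers were left out, repeated spots were averaged, and probes had to exceed background clearly on 4 or more of the 5 arrays in some group and to hold values on 20 or more arrays. This left 23617 probes and, with the brightest kept probe per gene, 18726 genes. A model with 1 mean per group was fitted with limma 3.58.1 in R 4.3.3 and p-values were adjusted by Benjamini-Hochberg over all genes in each of 10 comparisons, with intervals at 95%. The fit was also run on simulated data with independent noise for each gene and array. Those data held no shifts shared by genes on an array or slide, so the run does not speak to such shifts. The number of arrays limits the precision. The number of members lost to filters was 0.

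The receptor genes, the platelet lists and the marker lists were chosen with earlier results of these data known. Named were all 9 receptors, in each platelet list the 3 genes with the largest change past the threshold in each genotype, and the 8 genes closest in residual correlation. Cd36 and Tbxa2r in p38DN and p38WT, and Thbs1 and Tal1 where not among these, were added to complete a comparison.

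Alternatives were scaling, background correction, filters, probe choice, slide and replicate blocks, the hepatocyte level and leaving out arrays. The normexp correction was always run with an offset of 50 intensity units added to the signals. Figures were drawn with matplotlib 3.10.9 under Python 3.11.15.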

Additional observations from a re-analysis of the deposited data

Results flagged for a closer look

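In 4 of 54 groups of receptor levels, 1 array lay further from its group than Dixon's 95% limit. Chance gives this in about 1 group in 20. The 54 are the 9 genes on the same 6 groups of arrays, and the genes move together. They are therefore not independent, and the count cannot be weighed against that rate. Gp1bb stood at 2.88 on p38WT unirradiated array 4, with the nearest of the other arrays at 3.56, and Gp5 on the same array at 2.01, with the nearest at 2.96. P2ry12 stood at 2.40 on p38DKI irradiated array 2, with the nearest at 3.90. That array was the highest in hepatocyte transcripts and in the 75th percentile used for scaling. Gp9 stood at 6.93 on p38DN unirradiated array 2, with the nearest at 7.51 and hepatocyte markers at 6.71 above their median.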

How the results depend on the processing

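The estimates after irradiation were positive under all 47 settings for p38DKI and p38DN (423 of 423 values each) and for 421 of 423 in p38WT, the exceptions being Gp6 with normexp correction and with slide as a fixed block. Of these settings, 30 left out 1 array. Where that array was of another genotype, the estimate could not change. Many of the values therefore repeat the main estimate and are no separate check. The number of receptor genes called in p38DKI blood, 4 of 9, was 8 with scaling by the array median, 8 with no scaling, 8 in the deposited log2 table, 7 with the replicate block, 7 with the hepatocyte level as a covariate, 8 without the 4 arrays highest in hepatocyte transcripts, 2 with slide as a fixed block and 1 with normexp correction. It was 9 without p38DKI irradiated array 2 and p38WT irradiated array 3, an alternative chosen after seeing the data. Same-numbered arrays had residual correlations of -0.21 to 0.40 in p38DKI, -0.15 to 0.41 in p38DN, where they share a slide, and -0.13 to 0.30 in p38WT, and not every array correlated best with its own number. Of 140 results read with the replicate block, 134 were rated unchanged. In 4 a gene gained a call, and 2 counts or medians moved, among them the p38DKI count. In p38WT blood 0 were called with normexp correction and 0 with slide as a fixed block, in place of 8. Of p38DN against p38WT, the unirradiated count of 2 was 1 with no filter on dim probes, 1 with the mean of all probes and 0 without the 4 arrays (2 at an unadjusted p below 0.05, limma, with differences of 0.90 for Itga2b and -0.98 for Clec1b on the 2 unirradiated p38DN arrays left), and the irradiated count of 3 was 0 with normexp correction (2 at an unadjusted p below 0.05, limma) and 1 with the mean of all probes. The Itga2b difference between unirradiated p38DN and p38WT blood was -0.39 with normexp correction. The causes were not tested. Leaving out 1 array at a time gave 1 to 8 calls in p38DKI, 9 to 9 in p38DN and 8 to 9 in p38WT blood, 0 to 5 for p38DKI against p38WT after irradiation, 1 to 3 and 2 to 4 for p38DN against p38WT without and with irradiation, and 0 to 1 for the p38DN minus p38DKI difference of changes. Without scaling the median changes were 1.58, 2.06 and 1.24 in p38DKI, p38DN and p38WT blood, beside 0.37, 0.10 and -0.46 for all genes.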
